A study of Mus musculus with 6 samples.

Results

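The genes described here are 8 genes of cholesterol synthesis and its control, namely Hmgcs1, Idi1, Fdps, Fdft1, Sqle, Lss, Cyp51 and Insig1, followed across mouse embryonic stem (ES) cells of 3 genotypes. Members were taken as all Affymetrix probe sets annotated with a single gene symbol among these 8, which gave 21 of the 34945 single-symbol probe sets outside the array controls and 8 of 18193 genes. Of the 21 probe sets, 20 passed the filter on dim signal (log2 intensity above 4 on at least 2 of the 6 arrays), and every gene kept at least 1. The series compared NcGFP ki/+ cells, heterozygous for a knock-in, NcGFP ki/ki cells, homozygous for it, and the wild type ES line W4, with 2 arrays per genotype from independent experiments. All 6 cultures were grown with LIF in medium containing FCS on diluted plates labelled EMFI, read here as embryonic fibroblast feeders, so that feeders and serum were common to all groups. The labels do not spell out NcGFP, which from knowledge of the study is taken as a fusion of N-cadherin and green fluorescent protein placed in the E-cadherin gene Cdh1. They do not say how many ES clones stand behind each genotype or whether the experiments were separate clones, and p-values then measure only the spread between these arrays.

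Cholesterol is made from acetyl units through mevalonate, which is turned into isoprenoid building blocks, then into farnesyl diphosphate, squalene and the first sterol, lanosterol. The enzymes are switched together by the SREBP transcription factors, which leave the endoplasmic reticulum when membrane sterol is low and bind sterol regulatory elements in the promoters of these genes, usually beside sites for NF-Y and Sp1. INSIG1 closes the loop: it holds SREBP in the endoplasmic reticulum when sterol is plentiful, and its own gene is an SREBP target. Dividing ES cells need sterol for new membrane and can make it or take it from serum.

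Promoter sequence was found for 5 of the 8 genes in RefSeq (build GRCm38.p6), as windows of 300 bases from 250 before to 50 after the annotated start. The windows of Hmgcs1 and Insig1 are shown because these genes had the largest differences of the 8 between ki/ki and wild type and between ki/ki and ki/+. Each is written 5′ to 3′ on the strand of its gene, in lower case, with matches to TCACNCCAC (a sterol regulatory element core) and to CCAAT (the NF-Y box, which reads ATTGG where it lies on the opposite strand) in capitals.
Hmgcs1 promoter (chromosome 13, chr13:119690101-119690400, plus strand): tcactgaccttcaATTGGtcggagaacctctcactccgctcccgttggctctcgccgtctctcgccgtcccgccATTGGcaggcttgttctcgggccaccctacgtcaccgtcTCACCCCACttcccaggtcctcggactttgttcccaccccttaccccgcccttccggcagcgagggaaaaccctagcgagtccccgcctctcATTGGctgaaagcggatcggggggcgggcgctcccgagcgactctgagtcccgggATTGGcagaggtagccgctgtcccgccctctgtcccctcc
Insig1 promoter (chromosome 5, chr5:28071162-28071461, plus strand): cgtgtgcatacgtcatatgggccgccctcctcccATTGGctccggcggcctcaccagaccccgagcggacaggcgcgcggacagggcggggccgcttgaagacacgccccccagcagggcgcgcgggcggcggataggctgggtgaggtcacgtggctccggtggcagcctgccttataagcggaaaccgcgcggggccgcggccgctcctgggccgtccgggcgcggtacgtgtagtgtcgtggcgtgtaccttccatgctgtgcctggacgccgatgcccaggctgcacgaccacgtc
Hmgcs1 had a match to TCACNCCAC from position -137 to -129 relative to the start and 4 CCAAT boxes, the nearest upstream of the start from -45 to -41. Insig1 had a single CCAAT box from -216 to -212. The other windows had CCAAT from -62 to -58 for Lss, from -45 to -41 and from -14 to -10 for Idi1, and from -29 to -25 for Cyp51. CCAAT and the Sp1 box GGGCGG, searched on both strands, were each in all 5 windows, against 37.4% and 35.7% of the 32851 mouse promoter windows of that length. TCACNCCAC was in 1 of the 5 and in 1.24% of all windows. The longer classical sterol regulatory element (SRE-1), which contains this pattern, was in 0 of the 5 and in 0.0913% of all. A match is only a run of letters, and a missing match says nothing about binding by SREBP.

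Before the genes are compared, some facts bear on all 6 arrays. Median intensities lay between 49.97 and 53.3. Controls for 18S ribosomal RNA had mean log2 intensities of 7.22 and 7.12 in wild type but 11.12 to 11.57 in the 4 knock-in arrays, so whatever set this signal cannot be told apart from genotype in comparisons with wild type. A list of 27 measured feeder fibroblast markers was compared by its median deviation (log2) from each gene's mean. For replicates 1 and 2 that median came to -1.44 and -0.48 in ki/+ cells, to 0.01 and 1.44 in ki/ki cells, and to 0.14 and 0.27 in W4. The log2 of their summed intensity ran from 13.94 and 14.82 in ki/+ through 15.38 and 15.59 in wild type to 15.33 and 16.66 in ki/ki. Their lowest single value was 5.34, above the level of 4 used in the filter on dim signal. How much feeder RNA each array held was not measured. The ES cell markers Pou5f1 and Sox2 were bright on every array, between 12.60 and 13.08 and between 11.98 and 12.37. Others of the list of 12 pluripotent cell markers varied more. Zfp42 read 11.96 and 9.78 in ki/+, 10.08 and 11.80 in ki/ki, and 9.99 and 9.86 in wild type. Nanog lay between 11.92 and 13.08. Cdh1, the gene taken to carry the knock-in, was highest in wild type (12.17 and 12.13), with replicates 1 and 2 at 11.66 and 10.62 in cells labelled ki/+ and at 9.77 and 11.09 in cells labelled ki/ki. Where its probe set lies relative to the insertion is unknown here, so these values do not check the labels. Cdh2, the gene of N-cadherin, was at 8.27 and 8.46 in wild type, 6.50 and 7.66 in ki/+, and 7.88 and 9.11 in ki/ki, and the order of the 6 arrays by Cdh2 was the same as that by feeder markers. The ki/ki arrays were far apart, with 1306 of 16706 genes over 2-fold different between them, against 303 in ki/+ and 0 in wild type. In these cultures fewer cells of a type and less RNA per cell cannot be told apart.

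None of the 8 genes passed the test between genotypes. By the brightest probe set of each gene, mean differences (log2 intensity) lay between -0.53 and 0.39 for ki/ki against wild type, between -0.32 and 0.74 for ki/+ against wild type, and between -0.70 and -0.03 for ki/ki against ki/+. The test was limma's moderated fit of all 6 arrays, adjusted by Benjamini and Hochberg over all 37950 kept probe sets of a comparison with a threshold of 0.05. In limma 0 of the 20 probe sets passed in any of the 3 comparisons, where 0% of all probe sets passed in each. Unadjusted p values below 0.05 were given by limma to 8.94%, 10.5% and 10.3% of all probe sets in the order above. By the brightest probe set of each gene, those for ki/ki against wild type included Fdft1 on the higher side, where 4.18% of all genes were. They also included Hmgcs1 on the lower side, where 5.01% were. For ki/+ against wild type they included Fdft1 on the higher side, where 5.08% of all genes were, and 0 of the 8 on the lower, where 6.02% were. For ki/ki against ki/+ they included Fdps and Insig1 on the lower side, where 5.21% of all genes were. On the higher side were 0 of the 8, where 7.03% of all genes were. In that comparison the dimmest Lss probe set also had a limma unadjusted p of 0.041 (difference -0.93). The lowest adjusted p values of the 20 probe sets were 0.55, 0.267 and 0.472. The differences from wild type of ki/ki and of ki/+ use the same wild type arrays.

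**Figure D1:**
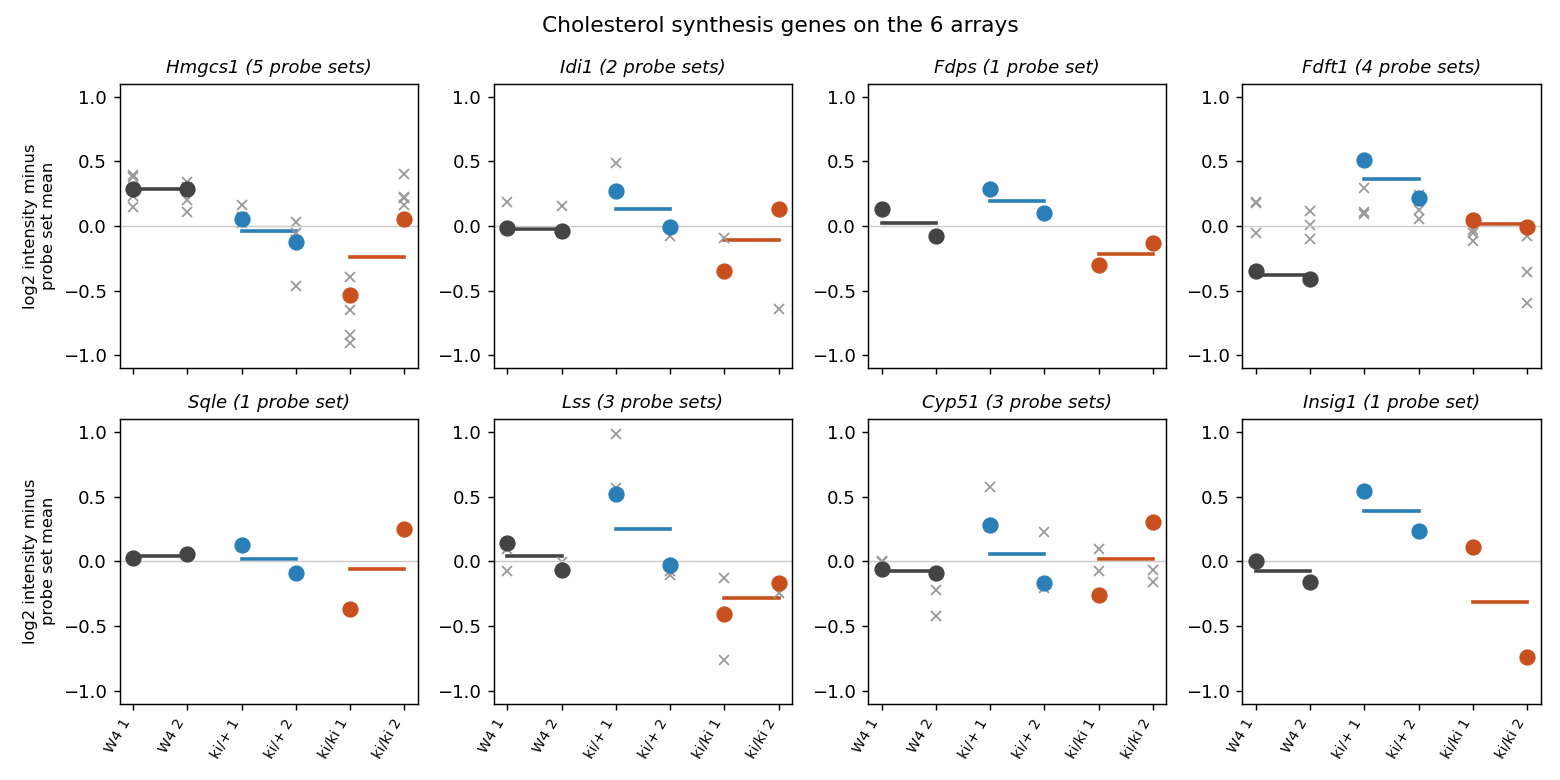
Log2 intensity minus the mean of the probe set (y axis) on the 6 arrays (x axis) for the 8 genes, with filled points for the brightest probe set of each gene, lines for its genotype means and crosses for the other kept probe sets. By the brightest probe set, Hmgcs1 is highest in both wild type (W4) arrays, Fdft1 is lowest there, and the ki/ki arrays lie furthest from each other for Insig1, Sqle, Hmgcs1 and Cyp51.

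The first enzyme of the group, HMG-CoA synthase (Hmgcs1), joins acetyl units into HMG-CoA. Its brightest probe set read 11.98 on both wild type arrays, 11.75 and 11.57 in ki/+, and 11.16 and 11.75 in ki/ki. All 4 knock-in arrays lay below both wild type arrays. The mean difference from wild type was -0.53 (SE 0.22, 95% interval -1.05 to -0.01, limma adjusted p = 0.554) in ki/ki and -0.32 (SE 0.22, interval -0.84 to 0.20, limma adjusted p = 0.653) in ki/+. The ki/ki difference depended on replicate 1, as it was -0.23 without that array and -0.82 without replicate 2 (limma adjusted p = 0.389 and 0.0511). In a fit that added the feeder marker median, the differences were -0.65 in ki/ki (limma adjusted p = 0.264) and -0.06 in ki/+ (limma adjusted p = 0.978). The other 4 probe sets of Hmgcs1 were also below wild type in the mean, with differences from -0.71 to -0.35 for ki/ki and from -0.49 to -0.04 for ki/+. On 1 of these, however, the array ki/ki replicate 2, at 11.86, was above wild type at 11.61 and 11.57. There ki/+ replicate 1, at 11.62, was also barely above wild type. On the dimmest probe set ki/ki replicate 2, at 4.56, lay between wild type replicates 1 and 2, at 4.72 and 4.54.

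Idi1 encodes the isomerase that makes the second isoprenoid building block. Its brightest probe set read 10.92 and 10.90 in wild type, 11.21 and 10.93 in ki/+, and 10.59 and 11.07 in ki/ki. The ki/ki arrays lay on opposite sides of wild type, and ki/+ replicate 2 lay barely above it. Differences from wild type were -0.08 (SE 0.21, limma adjusted p = 0.943) in ki/ki and 0.16 (SE 0.21, limma adjusted p = 0.843) in ki/+. The second Idi1 probe set gave a larger ki/ki difference, -0.54 (limma adjusted p = 0.61), with 9.70 and 9.15 in ki/ki against 9.98 and 9.95 in wild type and 10.28 and 9.72 in ki/+. On that probe set the lower ki/ki array was replicate 2, where on the brightest it was replicate 1.

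Farnesyl diphosphate synthase (Fdps) makes the branch point from which sterols, ubiquinone and prenyl groups are drawn. It read 11.50 and 11.29 in wild type, 11.66 and 11.47 in ki/+, and 11.07 and 11.24 in ki/ki. Both ki/ki arrays were below all other arrays, while ki/+ overlapped wild type. The difference of ki/ki was -0.24 (SE 0.16, interval -0.63 to 0.15, limma adjusted p = 0.738) from wild type and -0.41 (SE 0.16, interval -0.80 to -0.02, limma adjusted p = 0.475) from ki/+. The former was -0.13 without wild type replicate 1 and -0.34 without wild type replicate 2. Its second probe set read between 2.76 and 3.01 on the 6 arrays, below the filter, and was not tested.

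Squalene synthase (Fdft1) commits farnesyl diphosphate to sterols and had, by brightest probe sets, the largest difference among the 8 genes. Its brightest probe set read 10.10 and 10.04 in wild type, 10.96 and 10.66 in ki/+, and 10.49 and 10.44 in ki/ki. The genotypes did not overlap, in the order wild type, ki/ki, ki/+. The mean in ki/+ was 1.67-fold that of wild type (log2 difference 0.74, SE 0.16, interval 0.36 to 1.13, limma adjusted p = 0.267), and that in ki/ki was 1.31-fold (0.39, SE 0.16, interval 0.01 to 0.78, limma adjusted p = 0.55). With limma array weights the ki/+ difference passed (limma adjusted p = 0.0218), in a fit where 5.72% of all probe sets did, and with only the 4 arrays of ki/+ and wild type it came to limma adjusted p = 0.0521, in a fit where 3.38% of all did, 0.98% higher and 2.4% lower. The adjusted p of the ki/+ difference ran from 0.0218 to 1 over the alternatives.

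The other probe sets of Fdft1 showed this order only in part. A second bright one read 10.15 and 10.10 in wild type, 10.50 and 10.26 in ki/+, and 10.09 and 10.13 in ki/ki, which is a difference of 0.26 (limma adjusted p = 0.611) in ki/+ and -0.01 (limma adjusted p = 0.991) in ki/ki. Both dim probe sets, at 5.50 to 5.69 in wild type, had differences of 0.02 for ki/+, and for ki/ki they had -0.30 and -0.46. Only the ki/+ arrays were above wild type on both bright probe sets. With the mean of its kept probe sets the ki/+ difference of Fdft1 was 0.26 (limma adjusted p = 0.576) and the ki/ki difference turned to -0.09.

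Squalene epoxidase (Sqle) performs the first oxygen-dependent step of sterol synthesis. It read 10.25 and 10.28 in wild type, 10.35 and 10.13 in ki/+, and 9.85 and 10.47 in ki/ki. The knock-in genotypes each spanned the wild type values. Differences from wild type were -0.10 (SE 0.23, interval -0.65 to 0.44, limma adjusted p = 0.933) in ki/ki and -0.02 (SE 0.23, interval -0.57 to 0.52, limma adjusted p = 0.983) in ki/+.

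Lanosterol synthase (Lss) closes the sterol rings. Its brightest probe set read 8.80 and 8.59 in wild type, 9.18 and 8.63 in ki/+, and 8.25 and 8.49 in ki/ki. Both ki/ki arrays were below both wild type and both ki/+ arrays. The ki/ki mean differed by -0.33 (SE 0.22, limma adjusted p = 0.737) from wild type and by -0.53 (SE 0.22, interval -1.07 to 0.00, limma adjusted p = 0.485) from ki/+. The latter was -0.26 without ki/+ replicate 1 and -0.81 without ki/+ replicate 2, and the former was -0.20 without ki/ki replicate 1 and -0.45 without ki/ki replicate 2. The other Lss probe sets had the same signs, with -0.15 and -0.48 against wild type and -0.42 and -0.93 against ki/+. On the dimmest of them the array ki/+ replicate 1 read 6.92 and ki/+ replicate 2 read 5.86, so that difference from ki/+ came largely from 1 array.

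Cyp51, the demethylase that acts on lanosterol, read 9.16 and 9.13 in wild type, 9.50 and 9.05 in ki/+, and 8.96 and 9.52 in ki/ki by its brightest probe set. Both knock-in genotypes spanned wild type. The differences were 0.10 (SE 0.24, limma adjusted p = 0.942) in ki/ki and 0.13 (SE 0.24, limma adjusted p = 0.896) in ki/+, and its other probe sets were also above wild type in the mean, by 0.04 and 0.18 when ki/ki was compared and by 0.30 and 0.46 when ki/+ was.

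**Figure D2:**
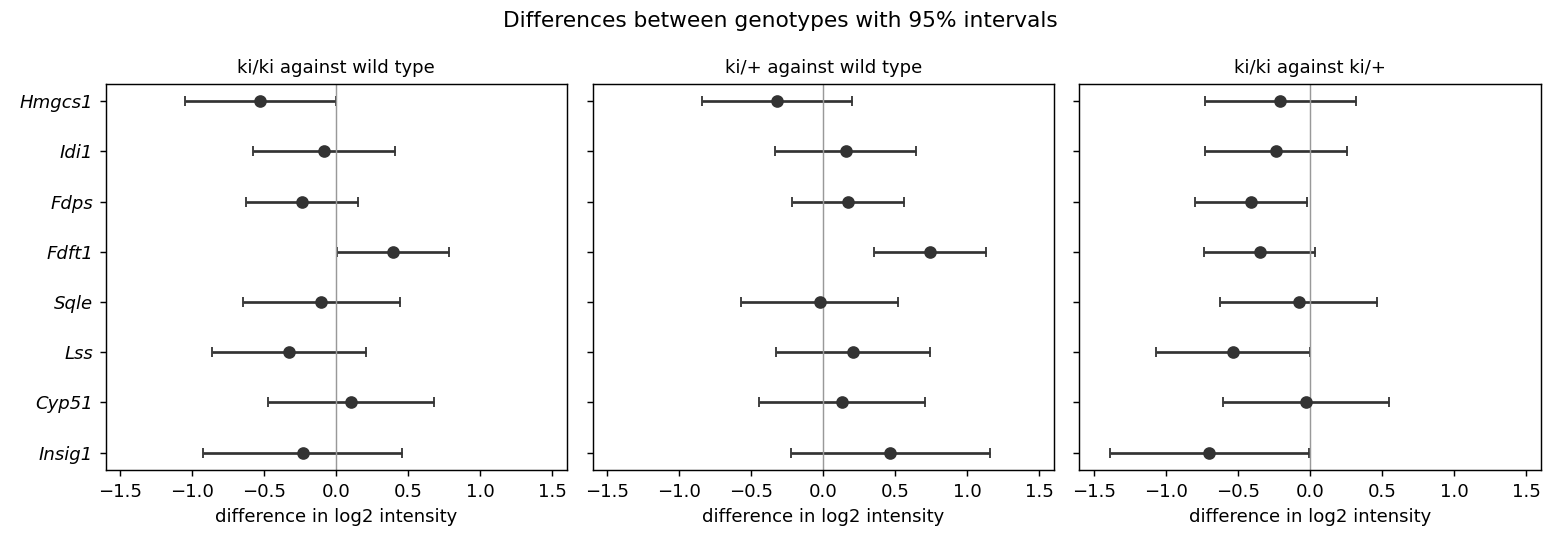
Differences in mean log2 intensity between genotypes (x axis, first named minus second) for the brightest probe set of each of the 8 genes (y axis), with 95% intervals from the limma fit of 6 arrays. In the comparison of ki/ki with ki/+ all 8 points lie below 0, from -0.70 for Insig1 to -0.03 for Cyp51.

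Insig1, the sterol-dependent brake on SREBP, was highest in ki/+. It read 9.73 and 9.57 in wild type, 10.27 and 9.96 in ki/+, and 9.84 and 8.99 in ki/ki. Both ki/+ arrays were above all others, ki/ki replicate 1 lay just above wild type and ki/ki replicate 2 was the lowest of the 6. The differences were 0.47 (SE 0.29, interval -0.22 to 1.16, limma adjusted p = 0.625) for ki/+ against wild type, -0.23 (SE 0.29, limma adjusted p = 0.87) for ki/ki against wild type and -0.70 (SE 0.29, interval -1.39 to -0.01, limma adjusted p = 0.483) for ki/ki against ki/+. Without ki/ki replicate 1 the last was -1.13 (limma adjusted p = 0.0152), in a fit with a lone ki/ki array where 13.2% of all probe sets passed, and without ki/ki replicate 2 it was -0.27 (limma adjusted p = 0.58). The order of the 6 arrays by Insig1 was the reverse of their order by the feeder marker median. How many of all genes had that reverse order was not counted. With that median as a covariate the differences were -0.14, 0.03 and 0.17 in the order given, so that each turned its sign. Their limma adjusted p values were 0.905, 0.962 and 0.956. The feeder median was itself lowest in both ki/+ arrays, so this fit cannot fully separate it from genotype. The cause was not tested.

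**Figure D3:**
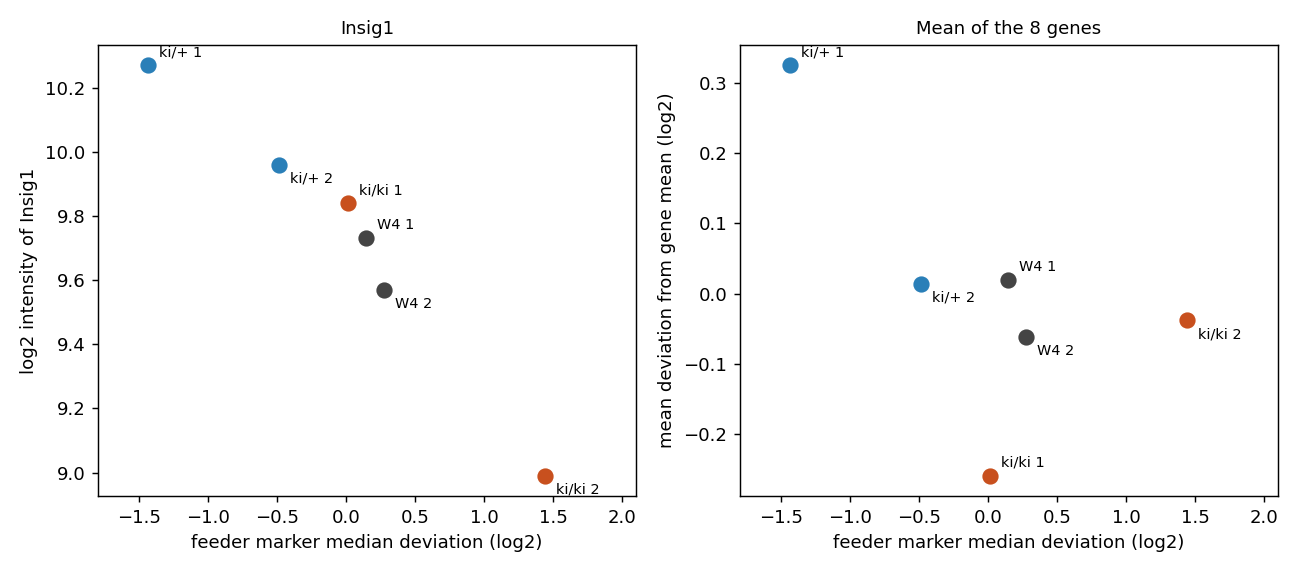
Log2 intensity of Insig1 (y axis, left panel) and mean deviation of the 8 genes from their gene means (y axis in log2, right panel) against the median deviation of 27 feeder fibroblast markers (x axes, log2), with 1 point per array. Insig1 descends from 10.27 to 8.99 as the feeder markers go up from -1.44 to 1.44, while the mean of the 8 genes is highest in ki/+ replicate 1 and lowest in ki/ki replicate 1.

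Counted over the 8 genes, ki/ki was below wild type in 6 and above it in 2, where 48.4% of all genes were above, with a median difference of -0.17 against -0.01 over all 16706 genes. In ki/ki both arrays were below both wild type arrays for 3 genes (Hmgcs1, Fdps and Lss), where 21.2% of all genes had that order, and above them for Fdft1, where 17.3% did. In ki/+ 6 genes were above wild type and 2 below, where 54.1% of all genes were above, with a median of 0.16 against 0.03 over all genes. There 3 genes had both arrays above wild type (Fdft1, Idi1 and Insig1), where 29.5% of all genes did, and Hmgcs1 had both below, where 26.4% did. Between the knock-in genotypes ki/ki was below ki/+ in 8 of 8 genes, against 57.4% of all genes (42.6% were above), and in 19 of 20 probe sets, with a median of -0.29 against -0.05. In 4 of the 8 (Fdft1, Fdps, Lss and Insig1) both ki/ki arrays were below both ki/+ arrays, where 21.1% of all genes had that order, and 0 of the 8 had both above, where 15.8% did. These counts describe genes that share their arrays and are no test. Without ki/ki replicate 1 only 4 of the 8 were below ki/+ and 4 below wild type, and without ki/+ replicate 1 only 4 of the 8 were above wild type in ki/+.

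Gaps between replicates of the knock-in genotypes were often of the size of the differences between genotypes, but not for every gene. By its brightest probe set Fdft1 had gaps of 0.31 in ki/+ and 0.05 in ki/ki, against differences from wild type of 0.74 and 0.39. Fdps had gaps of 0.19 and 0.17, against a difference of -0.41 between ki/ki and ki/+. Both wild type arrays lay close together for the 8 genes, with a median gap of 0.05 and a largest gap of 0.21 for Lss, against a median of 0.10 over all genes. In ki/+ replicate 1 was above replicate 2 for 8 of 8 genes, by 0.18 to 0.56 and a median of 0.30, against 0.18 over all genes. In ki/ki the median gap was 0.52, against 0.33 over all genes, with replicate 2 higher for 6 genes and replicate 1 higher for Fdft1 and Insig1. The array ki/+ replicate 1, where feeder markers were lowest, held the highest value of 5 genes. The array ki/ki replicate 1, where feeder markers were close to those of wild type, held the lowest value of 6 genes. The shares of all genes with these directions, or highest or lowest on these arrays, were not counted. The counts therefore do not set the 8 genes apart from the rest of the array. The mean deviation of the 8 genes (log2) was 0.33 and 0.01 in ki/+, -0.26 and -0.04 in ki/ki, and 0.02 and -0.06 in wild type. In a fit that added the feeder marker median, the median differences of the 8 genes, Insig1 included, were -0.19, 0.21 and -0.42 in the order ki/ki and ki/+ against wild type and ki/ki against ki/+.

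Across the 6 arrays the 8 genes did not all move together. Of their 28 pairs, 23 had a Pearson correlation above 0, with a median of 0.53, and 5 were above 0.8. Fdps and Lss were the closest pair (r = 0.95), and Sqle, Idi1 and Cyp51 had r between 0.86 and 0.88 with each other. Insig1 had r of -0.41 with Sqle and -0.26 with Cyp51, and Hmgcs1 had -0.44 with Fdft1. The points of each pair share their 6 arrays and their normalization, so these values are descriptions.

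The other enzymes of the pathway were described by a list of 14 genes, of which 11 were measured. In limma 0 passed in either direction in any comparison (lowest limma adjusted p by brightest probe sets = 0.493). Against wild type 7 were higher and 4 lower in ki/ki, with a median of 0.09. In ki/+ 9 were higher and 2 lower, with a median of 0.10. For ki/ki against ki/+ 5 were higher and 6 lower, with a median of -0.035, where 42.6% of all genes were higher. The drop in 8 of 8 member genes was thus not seen across these other enzymes. Among the kinases and the decarboxylase that turn mevalonate into isoprenoid units, Pmvk read 8.83 in ki/+ replicate 1 and between 7.64 and 7.95 on the other 5 arrays. Mvd read 8.89 in ki/+ replicate 1 and between 8.05 and 8.40 elsewhere. Msmo1, the oxidase that removes methyl groups after Cyp51, read 11.12 in ki/+ replicate 1 and 10.20 in ki/+ replicate 2, with the other 4 arrays between them. Of the 11 enzymes 6 were highest in ki/+ replicate 1, namely Mvk, Pmvk, Mvd, Tm7sf2, Lbr and Msmo1. The other 5, Nsdhl, Hsd17b7, Ebp, Sc5d and Dhcr7, were highest on other arrays, and Sc5d was lowest in ki/+ replicate 1. How many of all genes were highest in ki/+ replicate 1 was not counted. Ebp, an isomerase of late sterol intermediates, read 11.00 in ki/ki replicate 1 and between 8.78 and 9.61 on the other arrays. Dhcr7, the reductase that yields cholesterol, was highest in ki/+ replicate 2 at 9.50 and lowest in ki/ki replicate 2 at 8.37. Nsdhl, which acts in the removal of those methyl groups, had a ki/ki difference from wild type of 0.49 (SE 0.21, limma adjusted p = 0.555), with 10.24 and 9.90 against 9.67 and 9.48. Sc5d, Lbr and Hsd17b7, a desaturase and reductases of the later steps, differed by 0.30, -0.15 and 0.15 (limma adjusted p = 0.782, 0.844 and 0.875), and the probe sets of Hsd17b7 ranged from -0.50 to 0.45. In ki/+ the Hsd17b7 probe sets ranged from -0.56 to 0.96 against wild type. The 0.96 (limma adjusted p = 0.213) came from a dim probe set that read between 5.12 and 6.23.

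**Figure D4:**
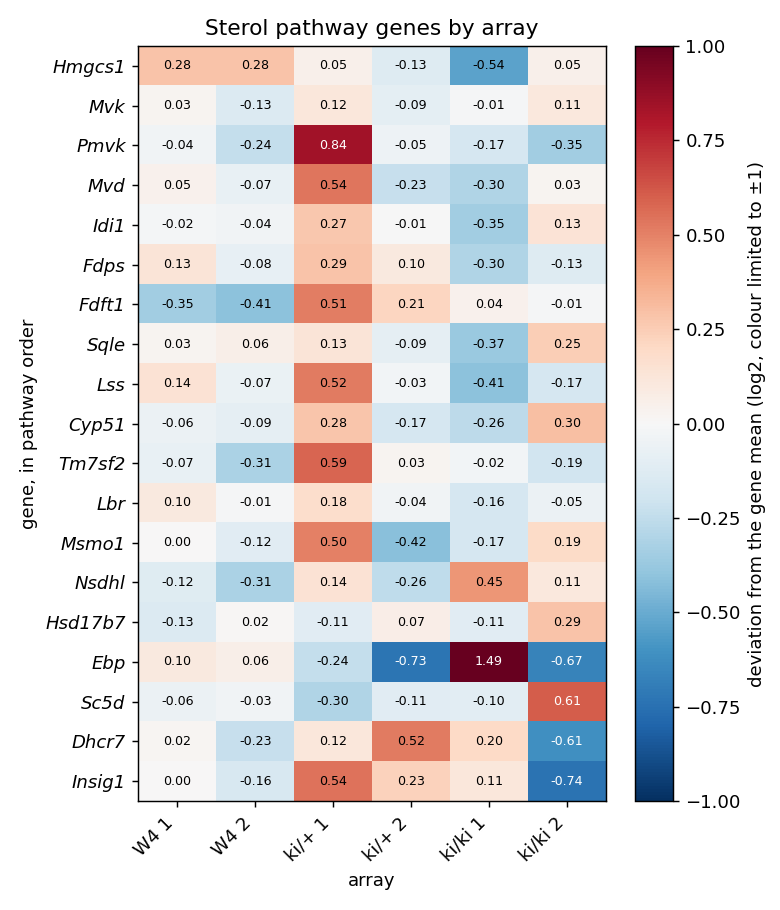
Deviation from the gene mean (log2, colour and printed values) of 18 sterol synthesis enzymes in pathway order and of Insig1 (rows) on the 6 arrays (columns), by the brightest probe set of each gene. From Pmvk to Msmo1 the column of ki/+ replicate 1 is above 0 throughout, and Ebp has its single high value, 1.49 above its mean, in ki/ki replicate 1.

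The genes that sense sterol and cut SREBP to its active form had medians close to 0 against wild type. Of 10 measured, 0 passed in limma, with median differences from wild type of -0.07 in ki/ki and -0.08 in ki/+. Between ki/ki and ki/+ 7 were higher in ki/ki and 3 lower, with a median of 0.115. Srebf2, which encodes the SREBP form that drives sterol synthesis, read 8.83 on both wild type arrays, 8.84 and 8.72 in ki/+, and 8.48 and 8.75 in ki/ki, a ki/ki difference of -0.21 (SE 0.16, limma adjusted p = 0.764). Its second probe set gave -0.38 (limma adjusted p = 0.589). The array ki/ki replicate 1 was the lowest for both Srebf2 probe sets, as it was for 6 of the 8 genes. Mbtps1, a protease that cuts SREBP, differed from wild type by -0.39 in ki/ki (limma adjusted p = 0.618) and -0.48 in ki/+ (limma adjusted p = 0.462), while its other probe sets were at -0.90 and -0.17 in the first comparison and differed in sign in the second, at -0.72 and 0.20. Insig2, the relative of Insig1, differed by 0.38 in ki/ki (limma adjusted p = 0.628), and Scap, the escort of SREBP, by 0.32 (limma adjusted p = 0.689).

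Among 14 fatty acid synthesis genes, driven mainly by the related factor from Srebf1, 0 passed in limma, with medians of 0.05 in ki/ki and 0.14 in ki/+ against wild type. Between ki/ki and ki/+ 4 were higher in ki/ki and 10 lower, with a median of -0.18. The desaturase gene Scd2 stood below wild type on all 4 knock-in arrays by each of its 3 probe sets. The brightest read 12.07 and 12.10 in wild type, 11.83 and 11.58 in ki/+, and 11.21 and 11.66 in ki/ki, with a ki/ki difference of -0.65 (SE 0.20, limma adjusted p = 0.401). For the others the ki/ki differences were -0.91 and -1.13, and those of ki/+ were -0.71 and -1.16. Fads2, a desaturase of polyunsaturated fatty acids, differed by -0.55 in ki/ki and -0.53 in ki/+ (limma adjusted p = 0.369 and 0.354). Elovl5, which lengthens such fatty acids, and Acss2, which makes acetyl-CoA from acetate, were on the other side, with 0.46 and 0.35 in ki/ki (limma adjusted p = 0.431 and 0.653). On Scd2 as on Hmgcs1 the wild type arrays were the highest and ki/ki replicate 1 the lowest.

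The genes most like the mean of the 8 over the 6 arrays were sought among 10151 other genes with a range of at least 0.5 (log2). The 10 with the highest Pearson correlation were Fkbp5, Ddx4, Chek2, Pla2g5, Suv39h2, Egln3, Rbbp9, Nubpl, Mgarp and Slc37a4, with r from 0.985 to 0.995, and none was in a list used here. Egln3, an oxygen-sensing prolyl hydroxylase, had the widest range of them, from 6.55 in ki/ki replicate 1 to 9.68 in ki/+ replicate 1. These correlations describe 6 points shared by all genes. Of the 11 other pathway enzymes, Mvd had r of 0.91 with the mean of the 8, at rank 191, and Lbr, whose range of 0.34 kept it out of the ranking, had 0.92. Pmvk, Tm7sf2, Msmo1 and Mvk had r from 0.45 to 0.85, Dhcr7 had 0.08, and Hsd17b7, Nsdhl, Sc5d and Ebp had r from -0.59 to -0.13.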

How the data were processed

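RNA of mouse ES cells of 3 genotypes was measured on 6 Affymetrix arrays, 2 per genotype. The authors deposited linear intensities, which the series' design text says were made by GCRMA with quantile normalization, and the text names limma too; tool versions were not given in the sources used here. Both deposited tables held these 6 arrays (largest difference 0), and 6 columns of another series in the second were left out. Log2 was taken of the intensities. Of 45101 probe sets, 64 controls were left out and 37950 had a log2 value above 4 on at least 2 arrays. Symbols came from the supplied platform annotation, updated through the RefSeq gene table: 34958 probe sets had 1 symbol, 932 several and 9211 none listed. Each gene was shown by the brightest, on average, of its kept probe sets with 1 symbol, giving 16706 genes. List genes without such a probe set were not analysed here.

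All kept probe sets were fitted with limma 3.58.1 in R 4.3.3, with genotype as the only term and 3 contrasts, and checked on simulated data. The fit had 3 residual degrees of freedom and a prior of 3.57. Precision is limited by the number of arrays. An array left out leaves a lone array of its genotype, taken to vary like the others. Alternatives were another normalization, filters, priors, weights, the replicate block, a feeder covariate and averaging of probe sets. Named were the 8 genes, Cdh1, Cdh2, up to 4 genes of each list with the smallest p for ki/ki against wild type, and the 10 genes most like the 8. Others (Pou5f1, Sox2, Zfp42, Mvk, Pmvk, Mvd, Tm7sf2, Msmo1, Ebp, Dhcr7) were named after their values were seen. The members, lists and tests were chosen with earlier results of these data known.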

Additional observations from a re-analysis of the deposited data

How the results depend on the processing

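The differences of the 8 genes in the 3 comparisons were refitted under 16 alternative settings, which gave 384 values. Of these, 363 kept their sign and their side of the threshold, 19 turned sign and 2 passed the threshold. Many could not turn sign, because some settings left the fitted difference as it was. They were other filters, another prior, the 4 arrays alone, array weights, the replicate block and leaving out an array of the third genotype. The last repeats the fit of the 4 arrays alone, so the 363 do not measure stability. Those that passed were Fdft1 in ki/+ against wild type with array weights and Insig1 in ki/ki against ki/+ without ki/ki replicate 1. The cause was not tested. Adding the feeder median as a covariate made the Insig1 differences 0.034 (ki/ki against wild type), -0.138 (ki/+ against wild type) and 0.173 (ki/ki against ki/+), and that of Sqle in ki/+ was 0.242. Without a turn of sign, it moved Hmgcs1 from -0.322 to -0.056 in ki/+ against wild type and from -0.205 to -0.589 in ki/ki against ki/+, and Fdft1 from -0.350 to -0.141 in the latter. Quantile normalization turned Sqle in ki/+ to 0.016, and averaging the kept probe sets per gene turned Fdft1 in ki/ki to -0.094.

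Leaving out single arrays turned the sign of further genes. Against wild type the ki/ki differences ran from -0.41 to 0.21 for Sqle, -0.32 to 0.16 for Idi1, -0.18 to 0.38 for Cyp51 and -0.66 to 0.19 for Insig1, each with its extremes at ki/ki replicates 1 and 2. The ki/+ differences ran from -0.071 to 0.485 for Lss, -0.094 to 0.352 for Cyp51 and -0.137 to 0.088 for Sqle, with the extremes at ki/+ replicates 1 and 2. Between ki/ki and ki/+ they ran from -0.39 to 0.23 for Sqle, -0.31 to 0.25 for Cyp51, -0.50 to 0.090 for Hmgcs1 and -0.480 to 0.002 for Idi1. The median over the 8 genes ran from -0.029 (without ki/+ replicate 1) to 0.325 (without ki/+ replicate 2) for ki/+ against wild type. It ran from -0.322 (without ki/ki replicate 2) to 0.002 (without ki/ki replicate 1) for ki/ki against wild type, and from -0.442 to -0.156 (without ki/+ replicates 2 and 1) for ki/ki against ki/+.

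The count of 0 probe sets called held under all settings in no comparison. It ran from 0 to 1796 for ki/ki against wild type (1796 without ki/ki replicate 1, 1046 without replicate 2) and from 0 to 4996 for ki/ki against ki/+ (4996 without ki/ki replicate 1, 62 without replicate 2). For ki/+ against wild type it ran from 0 to 2172, the latter with array weights. With only the 4 arrays compared it was 1282, and leaving out a single ki/ki array repeated that fit.

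With the replicate block 0 probe sets passed in each comparison and no member's call changed. Deviations of same-numbered arrays correlated at -0.04, 0.14 and 0.06 between genotypes. Whether same-numbered arrays share a batch was not tested. Arrays have no counting depth, and 2 per genotype limit what can be called.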

Other observations

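Lists around the pathway that the account above leaves out also had 0 members past the threshold in limma in any comparison. Of 11 measured genes of sterol uptake and transport, 9 were above wild type in ki/ki and 8 in ki/+, with medians of 0.20 and 0.36, against -0.01 and 0.03 over all genes. The lipoprotein receptor gene Vldlr read 5.09 and 5.27 in wild type, 6.16 and 5.76 in ki/+, and 6.02 and 6.58 in ki/ki by its brightest probe set. All 4 knock-in arrays were above both wild type arrays, by 1.12 (SE 0.24, limma adjusted p = 0.271) in ki/ki and 0.78 (limma adjusted p = 0.368) in ki/+. Its other probe sets gave 1.04, 0.38 and 0.33 in ki/ki. Scarb1, a receptor for high-density lipoprotein, Osbpl1a, an oxysterol-binding protein gene, and Lrp1, a receptor for lipoprotein remnants, differed by 0.27, 0.25 and 0.51 in ki/ki (limma adjusted p = 0.747, 0.7 and 0.743).

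Of 10 measured genes of sterol efflux and storage, 6 were above wild type in ki/ki and 4 in ki/+, with medians of 0.13 and -0.07. The cholesterol exporter gene Abca1 read 7.0 and 7.31 in wild type, 6.75 and 6.64 in ki/+, and 7.75 and 8.08 in ki/ki. The genotypes did not overlap, and ki/ki was above ki/+ by 1.22 (SE 0.19, limma adjusted p = 0.391). Genotype means had the same order by Abca1 and by feeder markers, but single arrays did not. In ki/ki replicate 1 the feeder median was 0.01, below 0.14 and 0.27 in wild type, while Abca1 there was above wild type. The ki/+ replicates also had opposite orders by Abca1 and by feeder markers. For ki/ki against ki/+ the dimmer Abca1 probe sets gave 0.22 and -0.06. Abcg1, another exporter gene, Apoe, a lipoprotein component gene, and Ch25h, an oxysterol-making hydroxylase gene, differed from wild type by -0.48, -0.52 and 0.69 in ki/ki (limma adjusted p = 0.56, 0.661 and 0.671). The 13 measured genes that draw isoprenoids off farnesyl diphosphate for prenyl groups, ubiquinone and dolichol had medians of 0.16 in ki/ki and -0.08 in ki/+. Of these, Rce1, a protease that trims prenylated proteins, and the prenyl transferase and synthase genes Pggt1b, Ggps1 and Rabggta differed from wild type by -0.34, 0.34, 0.25 and 0.19 in ki/ki (limma adjusted p from 0.649 to 0.825).

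The median difference of 16 primitive endoderm markers from wild type was 0.06 in ki/ki and -0.04 in ki/+, but Lama1, a basement membrane laminin gene, read 5.23 and 5.42 in wild type, 7.16 and 8.01 in ki/+, and 6.55 and 6.86 in ki/ki (limma adjusted p = 0.265 in ki/ki and 0.213 in ki/+). The median of 8 trophectoderm markers was -0.59 in ki/ki and -0.30 in ki/+, that of 12 pluripotent cell markers was -0.02 and 0.09, and that of 27 feeder markers was 0.59 and -1.13.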
